A study of Homo sapiens with 44 samples.

Results

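The 11 arrays described here are all those of U937, a human monocyte-like leukaemia cell line, out of 44 arrays in the series. They were chosen by cell line and by position on the array plate, with no measured value involved. All U937 arrays lay in plate row D, with 5 in columns 7 to 11 and 6 in columns 1 to 6. Columns 7 to 11 held replicate 3 of the scrambled control hairpin (shControl) and replicate 2 of each of the hairpins shGSK3B_1, shGSK3B_2, shGSK3A_5 and shGSK3A_6. Columns 1 to 6 held control replicates 1 and 2 and replicate 1 of the same 4 hairpins. Each hairpin came from a lentivirus, and shControl cells carried the same treatment without a target. Every group had been put under puromycin at 1 µg per mL from 48 h after infection, and RNA was taken 48 h after that. The labels call the replicates biological and say nothing of separate cultures or infections, so p-values measure the spread between arrays. The wells are known from the scanned array names in the labels. For the hairpins the column set and the replicate number are the same split, so replicate number and column set cannot be told apart there, and only the controls separate them because control replicate 2 lies in columns 1 to 6. HL-60, THP-1 and MOLM-14, the other acute myeloid leukaemia lines of the study, had the same 11 positions in their own plate rows and serve here for comparison.

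Values per array are the deposited intensity, on a linear scale. Differences are log2 differences, columns 7 to 11 minus columns 1 to 6, of log2(intensity + 16) within construct, which understates the change of dim genes. An error after a log2 difference is the standard error of the fit, with 5 arrays in columns 7 to 11 and 6 in columns 1 to 6. Adjusted p-values are from limma with Benjamini-Hochberg adjustment over 12165 genes, and a gene was called at an adjusted p under 0.05. Median intensity ran from 21 to 21.5 over the 11 arrays, and each array correlated best with the mean of the U937 arrays among the 4 lines. Of the usual markers of the line, CEBPA, ITGB2, FCER1G and TYROBP were bright, with means of 1250, 2120, 525 and 241 in columns 7 to 11 and 1120, 1580, 674 and 226 in columns 1 to 6. SPI1, CSF1R, CD68 and MPO stayed between 8.93 and 23.4 on every U937 array, which is near or below the array median, so these markers gave no clear signal here.

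Several gene programmes of cultured leukaemia cells are described by the lists used here. Proliferating cells transcribe the genes of DNA replication and mitosis through E2F and the MuvB complex. ATF4 is translated when amino acids run short or other stress acts on the ribosome, and it raises amino acid synthesis, transport and tRNA charging. Sterol-regulated genes follow SREBP2, oxidant-response genes follow NRF2, and heat shock genes follow HSF1. Immediate early genes such as EGR1 and FOS answer serum and growth factors within minutes. Myeloid cells also carry granule proteases and the S100A8 and S100A9 proteins, which change with maturation.

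The column set was the largest source of variation among the U937 arrays. It took 49.3% of the total variance over genes, differences between constructs took 38.9%, and 11.8% was left. The first principal component held 51.5% of the variance and put the 5 arrays of columns 7 to 11 between 11.02 and 18.04 and the 6 arrays of columns 1 to 6 between -13.57 and -10.25. The controls show the same split without any hairpin against a target. Control replicate 3, in column 7, differed from replicate 1 by a median absolute log2 difference of 0.102 and from replicate 2 by 0.1, whereas replicates 2 and 1, both in columns 1 to 6, differed by 0.0533.

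**Figure D1:**
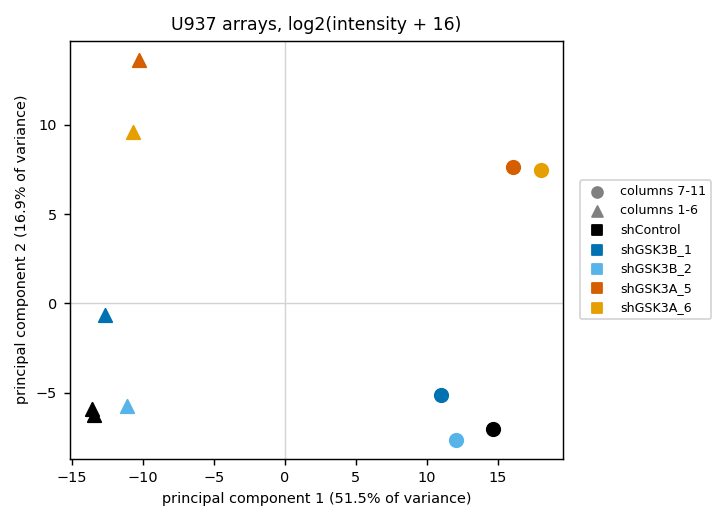
Principal components 1 (51.5% of variance) and 2 (16.9%) of the 11 U937 arrays, from log2(intensity + 16); circles are columns 7 to 11, triangles are columns 1 to 6, and colours are constructs. The column sets lie on opposite sides of 0 on component 1 for every construct, while component 2 sets the GSK3A hairpins apart from the rest.

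In all, 2303 genes were higher in columns 7 to 11 (18.9% of genes tested) and 2091 were lower (17.2%). At least a 1.5-fold difference was reached by 248 of the higher genes (2.04%) and 195 of the lower genes (1.6%). Of the 4394 called genes (36.1%), 3830 (31.5% of genes tested) had 1 sign in all 5 constructs. The deposited intensities of the column sets did not overlap for 1000 higher genes (8.22%) and 940 lower genes (7.73%). Without construct as a block, the counts were 1443 higher and 1272 lower. These are bulk samples, so fewer cells of a type and less RNA per cell cannot be told apart in any of the differences below.

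Neither targeted gene was called between the column sets. GSK3B had 160, 51.1, 41.2, 190 and 161 in columns 7 to 11 for shControl, shGSK3B_1, shGSK3B_2, shGSK3A_5 and shGSK3A_6. In columns 1 to 6 it had 172 and 168 in the controls and 57.5, 31.1, 197 and 170 in the same hairpins. Both GSK3B hairpins were thus far below the control arrays in either set, and the column difference was -0.01 ± 0.08 (adjusted p = 0.955). GSK3A was dim, at 47.5 in the control, 37.8 in shGSK3A_5 and 46.6 in shGSK3A_6 in columns 7 to 11, against 46.5 and 39.4 in the controls, 39.1 in shGSK3A_5 and 41.0 in shGSK3A_6 in columns 1 to 6. This probe set, the brighter of 2 for GSK3A, therefore did not separate GSK3A hairpins from controls, and its column difference was 0.06 ± 0.04 (adjusted p = 0.338). Neither of the 2 was called between the column sets, and the hairpins were not compared on the other.

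Control probe sets along the transcripts of ACTB and GAPDH, which report how far labelled RNA reaches towards the 5′ end, also differed between the column sets. The ACTB 5′ probe set had 3560, 3540, 3680, 3570 and 3880 in columns 7 to 11, against 5250 to 5780 in columns 1 to 6. Its 3′ probe set had 6320 to 6730 in columns 7 to 11 and 7360 to 8000 in columns 1 to 6. The log2 difference was -0.59 at the 5′ end, -0.48 in the middle and -0.26 at the 3′ end, so the 3′ to 5′ excess was 0.33 larger in columns 7 to 11, with 0.24 to 0.45 in the single constructs (exact permutation of column sets within construct, two-sided p = 0.0208, adjusted p = 0.0273 over 21 measures). That p is the smallest that 48 arrangements allow. For GAPDH the excess was larger by 0.08, with 0.0025 to 0.141 in the single constructs (adjusted p = 0.0273 by the exact permutation test). The log2 3′ minus 5′ value was -0.0845 to 0.0561 in columns 7 to 11 and -0.1065 to -0.063 in columns 1 to 6. The sets thus overlapped, and the mean was negative in both (-0.0071 and -0.0882). Signals from both ends of ACTB and GAPDH were thus lower in columns 7 to 11, and the 5′ end of ACTB was the lowest relative to columns 1 to 6.

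Of the 5 probe sets for ribosomal RNA, 3 passed the exact permutation test (adjusted p = 0.0273 for each). The 18S rRNA middle probe set was higher by 0.52, at 1170 to 1490 in columns 7 to 11 and 728 to 1140 in columns 1 to 6, and the 28S rRNA 5′ probe set was lower by 0.54, at 2300 to 3390 in columns 7 to 11 and 3410 to 5640 in columns 1 to 6. The 18S rRNA 3′ probe set was higher by 0.26, while its 5′ probe set differed by 0.52 with -0.07 to 0.74 in the single constructs (adjusted p = 0.0691, exact permutation) and the 28S rRNA middle probe set by -0.06 (adjusted p = 0.333). The bacterial hybridization standards, which are added to the sample before hybridization, differed by 0.22 on average (adjusted p = 0.0875, exact permutation) and did not pass. The poly-A labelling standards differed by 0.01 (adjusted p = 0.0515, exact permutation) and lay between 3.98 and 13.9 on every U937 array. In MOLM-14 the 3′ to 5′ excess was larger in columns 7 to 11 by 1.18 for ACTB and 1.03 for GAPDH, while in HL-60 it differed by -0.01 and 0.01 and in THP-1 by 0.03 and -0.03. The part of RNA quality in the gene differences below was not tested.

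**Figure D2:**
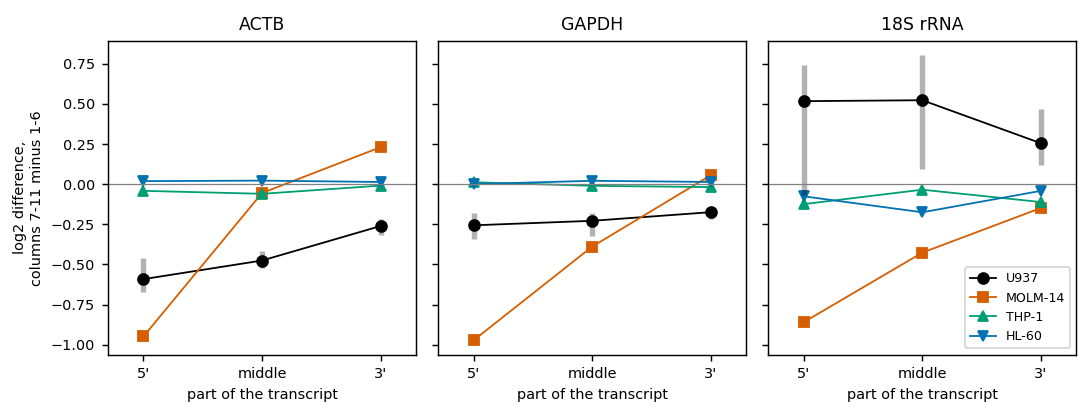
Log2 difference, columns 7 to 11 minus columns 1 to 6, of the 5′, middle and 3′ control probe sets of ACTB, GAPDH and 18S rRNA in 4 lines; points are means over the 5 constructs and grey bars span the 5 constructs of U937. ACTB of U937 runs from -0.59 at the 5′ end to -0.26 at the 3′ end, MOLM-14 falls furthest at the 5′ end, and HL-60 and THP-1 stay near 0 for ACTB and GAPDH.

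EGR1, an immediate early transcription factor, had the largest difference of any gene called with 1 sign in all constructs. Its intensity was 459, 430, 326, 270 and 275 in columns 7 to 11, against 38.3 and 41.4 in the controls and 32.4, 22.3, 20 and 12.1 in the hairpins of columns 1 to 6. The sets did not overlap, and in both the GSK3A hairpins were at the low end. The log2 difference was 3.15 ± 0.18 (adjusted p = 2.97e-12), and the control arrays that share columns 1 to 6 differed from each other by 0.07. CD69, a lectin-like receptor induced on activated leukocytes, was the gene with the next largest increase, at 635, 660, 555, 591 and 659 in columns 7 to 11 and 160, 167, 209, 161, 171 and 214 in columns 1 to 6. Its difference was 1.72 ± 0.03 (adjusted p = 9.59e-22), with a spread among arrays of a set far smaller than the gap.

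Of the immediate early list, 9 of 18 measured members were higher and 1 was lower, against 18.9% higher and 17.2% lower over all genes. The list median was 0.17 against 0.00 over all genes. FOS, a subunit of AP-1, had 89.9 to 110 in columns 7 to 11 and 30.4 to 53 in columns 1 to 6 (1.01 ± 0.12, adjusted p = 1.81e-07). IER2 and BTG1 were higher by 0.79 ± 0.08 and 0.53 ± 0.05. JUN, the partner of FOS in AP-1, went the other way (-0.29 ± 0.07). Its means were 194 in columns 7 to 11 and 238 in columns 1 to 6. EGR3, FOSB, KLF2, NR4A1 and NR4A2 were dim and not called. KLF4, KLF6 and MCL1 were brighter and also not called. MCL1 had means of 606 in columns 7 to 11 and 579 in columns 1 to 6, and KLF6 had 142 and 136. EGR1, FOS, IER2 and BTG1 were the members that rose by the largest amounts. MYC, a growth-driving factor that also follows serum, had 3940 to 5630 in columns 7 to 11 and 1910 to 4000 in columns 1 to 6, so the sets overlapped while the difference within construct was 0.69 ± 0.07 (adjusted p = 2.62e-08).
The 250 bases before the EGR1 start (chr5:138465229-138465478, plus strand, GRCh38.p14, RefSeq) are shown because EGR1 leads the list and carries the serum response element of the textbooks. Capitals mark 2 CArG boxes, the core to which serum response factor binds, a motif chosen after the values of EGR1 were seen. A CArG box was found in 1 of 15 members of the list with a promoter sequence and in 1.16% of 35116 promoters.
EGR1: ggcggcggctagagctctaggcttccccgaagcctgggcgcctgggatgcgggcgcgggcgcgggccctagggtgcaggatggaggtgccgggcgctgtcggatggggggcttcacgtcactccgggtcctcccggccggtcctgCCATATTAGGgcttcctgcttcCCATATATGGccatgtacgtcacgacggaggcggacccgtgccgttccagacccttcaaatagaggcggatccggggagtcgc

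**Figure D3:**
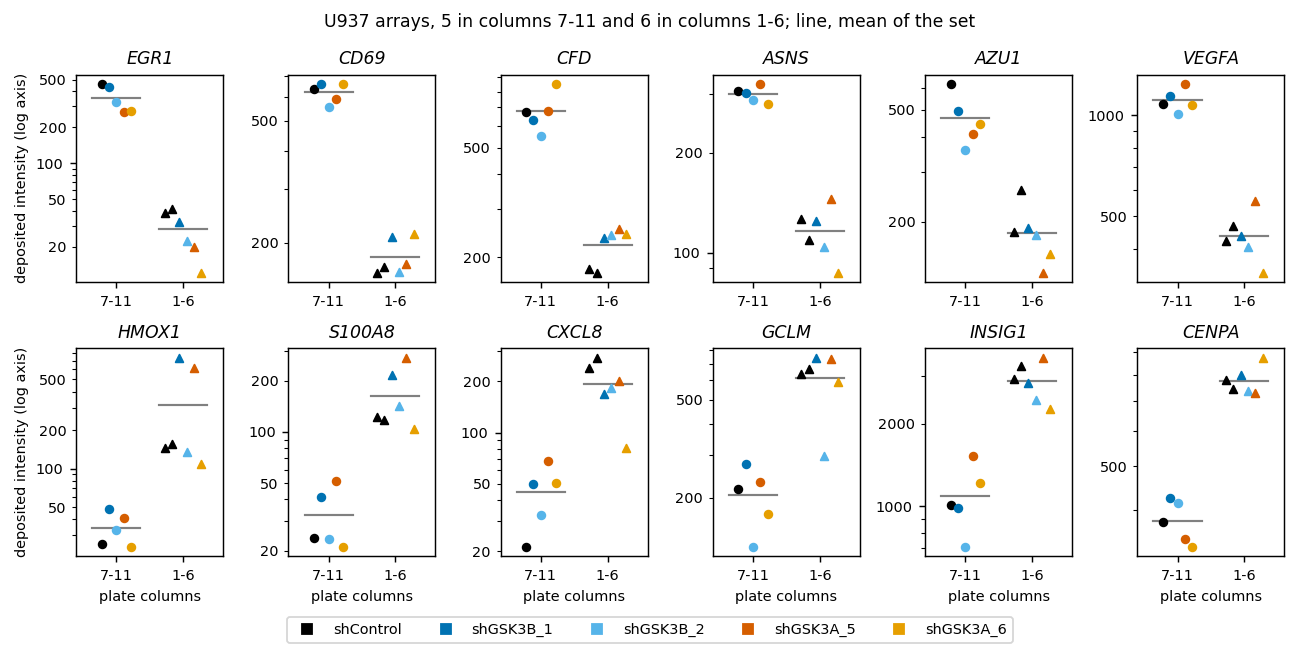
Deposited intensity (log axis) of 12 genes on each U937 array, columns 7 to 11 left and columns 1 to 6 right; colours are constructs and grey lines are set means. The upper 6 genes lie higher and the lower 6 lie lower in columns 7 to 11, with no overlap between the sets for any of the 12.

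Genes of cell division were lower in columns 7 to 11. All 29 measured members of the mitosis list were called lower, with a list median of -0.64, and 26 of 31 of the replication list were called lower, with a median of -0.52. None of either list was called higher. CENPA, the histone that marks centromeres, had 375, 425, 413, 345 and 331 in columns 7 to 11, against 780, 742, 797, 735, 727 and 872 in columns 1 to 6. No array of either set came near the other set, and the difference was -0.98 ± 0.06 (adjusted p = 5.99e-12). KIF11, the motor that separates spindle poles, differed by -0.93 ± 0.06, CCNB1, the mitotic cyclin, by -0.77 ± 0.05, and the kinase AURKA by -0.62 ± 0.04. SKP2, which marks the inhibitor p27 for destruction at entry into S phase, had 74.3 to 112 in columns 7 to 11 and 192 to 276 in columns 1 to 6 (-1.15 ± 0.08). Of the 2 probe sets of SKP2, 1 was called. SMC2, a subunit of the condensins that pack mitotic chromosomes, differed by -1.06 ± 0.06.

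Among replication genes, RRM2, the regulated subunit of ribonucleotide reductase, had 1160, 1620, 901, 1370 and 1150 in columns 7 to 11. In columns 1 to 6 it had 2260 and 2460 in the controls and 2670, 1380, 2590 and 2350 in the hairpins. The sets overlapped only through shGSK3B_2, whose arrays were the lowest of each set, and within construct the difference was -0.86 ± 0.06 (adjusted p = 1.49e-11). CCNE1, the cyclin of the G1 to S transition, differed by -0.80 ± 0.06, the polymerase subunit POLE2 by -0.71 ± 0.05 and the helicase subunit MCM7 by -0.58 ± 0.04. The 5 members not called were CDT1, RFC4, POLD1, PRIM1 and E2F1. The median difference over the constructs ran from -0.95 to -0.48 for mitosis and from -0.81 to -0.30 for replication. In the list of histone genes, 3 of 17 were called higher and 3 lower, with a median of -0.02. Many members were dim. The brightest, H4C3, was lower, at means of 2150 in columns 7 to 11 and 2640 in columns 1 to 6. Over all genes tested, 18.9% were called higher and 17.2% lower.
The CENPA promoter (chr2:26785806-26786055, plus strand, GRCh38.p14, RefSeq) is shown with the cell cycle homology region, TTTGAA, in capitals, the element by which the MuvB complex reaches mitotic genes. This motif, searched on both strands of the 250 bases before the start, was found in 13 of 25 mitosis members with a promoter sequence (52%) and in 13.3% of 35116 promoters. The E2F motif TTTGGCGC was found in 3 of 28 replication members (MCM6, POLA1 and E2F1) and in 0.55% of promoters.
CENPA: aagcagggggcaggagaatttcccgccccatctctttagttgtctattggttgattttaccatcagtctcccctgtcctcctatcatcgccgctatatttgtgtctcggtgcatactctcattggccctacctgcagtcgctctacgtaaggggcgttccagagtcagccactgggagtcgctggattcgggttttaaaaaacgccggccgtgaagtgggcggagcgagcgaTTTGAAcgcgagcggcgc

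Genes of the ATF4 response were higher together. Of 28 measured members, 26 were called higher and none lower, with a list median of 0.59, and the 2 not called were SLC7A11 and STC2. Of all genes tested, 18.9% were called higher and 17.2% lower. ASNS, asparagine synthetase, had 305, 302, 287, 321 and 279 in columns 7 to 11, against 126, 109, 125, 104, 145 and 87.3 in columns 1 to 6. The sets were apart by more than 1.5-fold at their nearest arrays, and the difference was 1.27 ± 0.16 (adjusted p = 3.94e-07). DDIT4, an inhibitor of mTORC1, was higher by 1.31 ± 0.10 and SLC38A2, a transporter of neutral amino acids, by 0.72 ± 0.06. The tRNA synthetases GARS1 and NARS1 were higher by 0.62 ± 0.05 and 0.45 ± 0.03, and the ATF4 transcript itself, which is not in the rule for named genes, averaged 2800 in columns 7 to 11 and 2120 in columns 1 to 6 (0.45 ± 0.04). PSAT1, of serine synthesis, had a difference of 0.59 ± 0.19 (adjusted p = 0.0147) without 1 sign in all constructs. It was not called without control replicate 3 (adjusted p = 0.054), without the shGSK3A_6 construct (adjusted p = 0.0681) or without the construct block (adjusted p = 0.11). ASS1, which makes argininosuccinate and lies outside the list, had 1610 to 1990 in columns 7 to 11 and 522 to 695 in columns 1 to 6 (1.53 ± 0.07).
The ASNS promoter (chr7:97872409-97872658, minus strand, GRCh38.p14, RefSeq) is shown because ASNS is the classical target, with the ATF4 element TGATGNAA in capitals. On either strand of the 250 bases before the start, that motif was found in 3 of 25 members with a promoter sequence (ASNS, CHAC1 and AARS1, 12%) and in 3.14% of 35116 promoters.
ASNS: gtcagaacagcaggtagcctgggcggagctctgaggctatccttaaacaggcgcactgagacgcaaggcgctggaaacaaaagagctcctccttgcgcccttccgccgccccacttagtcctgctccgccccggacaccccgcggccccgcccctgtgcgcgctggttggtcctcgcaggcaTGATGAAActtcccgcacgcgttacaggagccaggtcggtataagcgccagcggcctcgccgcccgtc

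Genes under SREBP control were lower, beside a share of 17.2% called lower over all genes tested. In the list of cholesterol and fatty acid synthesis, 19 of 23 measured members were called lower and none higher, with a median of -0.49, and PMVK, CYP51A1, ACACA and ELOVL6 were not called. INSIG1, the sterol sensor partner that is itself an SREBP target, had 1010, 983, 711, 1530 and 1220 in columns 7 to 11, against 2930, 3260, 2830, 2440, 3490 and 2270 in columns 1 to 6 (-1.39 ± 0.09, adjusted p = 1.45e-11). All arrays of columns 7 to 11 lay below all arrays of columns 1 to 6. HMGCS1, which makes the substrate of HMG-CoA reductase, had 108 to 262 in columns 7 to 11 and 190 to 596 in columns 1 to 6 (-1.03 ± 0.08), with the shGSK3A_5 array highest and the shGSK3B_2 array lowest in both sets. EBP and LSS, later enzymes of the pathway, differed by -0.78 ± 0.05 and -0.52 ± 0.04. The sterol element TCACNCCAC was found in 1 of 21 members with a promoter sequence, SREBF2, and in 0.883% of promoters.

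Chaperone genes were lower by smaller amounts, where 17.2% of all genes tested were called lower and 18.9% higher. In the heat shock list 16 of 19 measured members were called lower, with a median of -0.34, 1 was higher (DNAJB4, 0.26 ± 0.07) and HSPA6 and CRYAB were not called. HSPA8, the constitutive HSP70, had 4140 to 4400 in columns 7 to 11 and 4840 to 6250 in columns 1 to 6 (-0.37 ± 0.04, adjusted p = 1.16e-08). BAG3, its inducible partner, had 54.4 to 78.9 in columns 7 to 11 and 110 to 137 in columns 1 to 6 (-0.76 ± 0.07), with no overlap between the sets. STIP1, which joins HSP70 to HSP90, differed by -0.49 ± 0.05. HSPA4 differed by -0.59 ± 0.04, but of its 4 probe sets 3 were called in that direction and 1 in the other.
The HSPA8 promoter (chr11:123062137-123062386, minus strand, GRCh38.p14, RefSeq) is shown with 2 matches to the heat shock element in capitals (GAA, TTC and GAA, each 2 bases apart), 1 on each strand. It was found in 3 of 17 members with a promoter sequence (HSPA8, HSPA6 and CHORDC1, 17.6%) and in 0.441% of 35116 promoters.
HSPA8: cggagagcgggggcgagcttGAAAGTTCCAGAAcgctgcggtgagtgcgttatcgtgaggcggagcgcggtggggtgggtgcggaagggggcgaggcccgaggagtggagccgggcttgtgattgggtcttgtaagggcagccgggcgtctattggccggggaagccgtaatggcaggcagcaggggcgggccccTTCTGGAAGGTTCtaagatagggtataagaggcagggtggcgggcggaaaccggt

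NRF2 target genes held some of the largest decreases. Of all genes tested, 17.2% were called lower and 18.9% higher. In the list 12 of 17 measured members were called lower, with a median of -0.27, ABCC1 was called higher (0.21 ± 0.05), and TXN, SLC7A11, ME1 and MAFG were not called. HMOX1, heme oxygenase 1, had 25.6, 48.4, 32.8, 41.3 and 24.5 in columns 7 to 11. In columns 1 to 6 it had 144 and 156 in the controls and 737, 135, 610 and 109 in the hairpins. The sets did not overlap, and shGSK3B_1 and shGSK3A_5 were the highest arrays of both. The difference was -2.42 ± 0.19 (adjusted p = 2.45e-10), the largest decrease among genes with 1 sign in all constructs. GCLM, the regulatory subunit of the enzyme that begins glutathione synthesis, had 217, 275, 127, 233 and 173 in columns 7 to 11, against 638, 669, 740, 297, 730 and 591 in columns 1 to 6 (-1.46 ± 0.07). NQO1, a quinone reductase, and TXNRD1, thioredoxin reductase 1, differed by -1.29 ± 0.06 and -0.74 ± 0.04. PIR, an iron-binding protein that also answers NRF2, differed by -1.08 ± 0.08. FTL, the ferritin light chain, differed by -0.33 ± 0.03.
The GCLM promoter (chr1:93909431-93909680, minus strand, GRCh38.p14, RefSeq) is shown with the antioxidant response element TGACNNNGC in capitals, which lies here on the opposite strand. On either strand, that motif was found in 3 of 12 members with a promoter sequence (GCLM, TXNRD1 and ME1, 25%) and in 10.9% of 35116 promoters.
GCLM: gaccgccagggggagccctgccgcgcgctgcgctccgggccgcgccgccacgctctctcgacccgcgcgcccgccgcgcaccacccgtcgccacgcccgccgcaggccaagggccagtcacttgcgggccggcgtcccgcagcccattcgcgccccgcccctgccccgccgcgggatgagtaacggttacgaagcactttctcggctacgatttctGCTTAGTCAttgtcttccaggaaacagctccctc

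**Figure D4:**
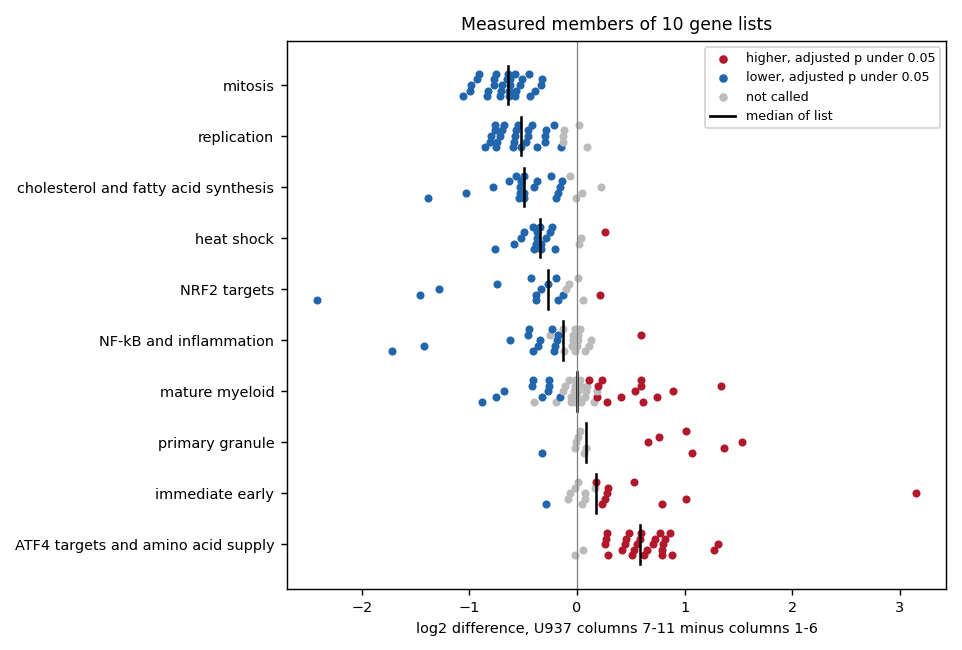
Log2 difference, U937 columns 7 to 11 minus columns 1 to 6, of each measured member of 10 gene lists; red is called higher, blue is called lower, grey is not called, and black lines are list medians. All 29 mitosis members lie below 0 and 26 of 28 members of the ATF4 list are called higher, while mature myeloid genes spread to both sides.

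In the NF-kB and inflammation list 13 of 29 measured members were called lower, 1 was called higher and 15 were not called. Over all genes tested 17.2% were lower and 18.9% higher, and the list median was -0.13. CXCL8, the neutrophil chemokine interleukin 8, had 21.3, 49.8, 32.8, 67.7 and 50.6 in columns 7 to 11, against 240, 275, 169, 182, 201 and 81.3 in columns 1 to 6 (-1.72 ± 0.18, adjusted p = 4.18e-08). The sets did not overlap, though shGSK3A_6 in column 6 came close, and 2 of the 9 probe sets of the gene were called, both lower. CCL2, the monocyte chemokine, had 159 to 545 in columns 7 to 11 and 342 to 1410 in columns 1 to 6 (-1.43 ± 0.11), with overlap between different constructs only. SOD2, a mitochondrial superoxide dismutase under NF-kB, differed by -0.62 ± 0.06. CCL5 was the member called higher, at 468 to 620 in columns 7 to 11 and 299 to 426 in columns 1 to 6 (0.60 ± 0.06).

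S100A8 and S100A9, the subunits of calprotectin, moved together. S100A8 had 23.7, 41.4, 23.4, 51.6 and 21.1 in columns 7 to 11, against 122, 117, 216, 142, 273 and 104 in columns 1 to 6 (-1.90 ± 0.10, adjusted p = 2.88e-13). S100A9 had 16.3, 27.2, 16.1, 30.3 and 15.4 in columns 7 to 11, against 77.8, 67.2, 99.2, 58.6, 160 and 55 in columns 1 to 6 (-1.43 ± 0.08, adjusted p = 1.69e-12). In both genes the shGSK3A_5 array was the highest of each set. Of the 2 probe sets of S100A8, 1 was called. Of the 9 S100 genes measured, S100A10 was also lower (-0.23 ± 0.06) and S100P was higher (0.67 ± 0.15, adjusted p = 0.00105). The list as a whole had a median of -0.04, and over all genes tested 18.9% were called higher and 17.2% lower.

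Granule proteases were higher, and the shares over all genes tested were 18.9% called higher and 17.2% lower. Of 13 measured members of the primary granule list 6 were called higher, ELANE, PRTN3, AZU1, CTSG, MS4A3 and CFD, and 1 lower, the proteoglycan core SRGN (-0.33 ± 0.04). CTSG, cathepsin G, had 9320, 9150, 8040, 9650 and 8810 in columns 7 to 11, against 5120, 4750, 4830, 4770, 3900 and 3440 in columns 1 to 6 (1.01 ± 0.06, adjusted p = 3.01e-12). AZU1, the antimicrobial azurocidin, had 361 to 618 in columns 7 to 11 and 132 to 259 in columns 1 to 6 (1.37 ± 0.09), although the 2 control arrays of columns 1 to 6 differed from each other by 0.46. ELANE, neutrophil elastase, and CFD, complement factor D, were higher by 1.07 ± 0.08 and 1.53 ± 0.10. MPO, the myeloperoxidase of the same granules, stayed at 10.6 to 15.2 in columns 7 to 11 and 10.3 to 15 in columns 1 to 6 and was not called (adjusted p = 0.921). The other members not called were DEFA4, RNASE2, PRG2, CLC and BPI, of which RNASE2 was bright, at a mean of 2280 in columns 7 to 11 and 2240 in columns 1 to 6.

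Mature myeloid genes split, with 13 of 44 measured members called higher and 10 lower and a median of 0.00. The shares over all genes tested were 18.9% higher and 17.2% lower. FCGR1A, the high-affinity IgG receptor CD64, had 298, 282, 313, 501 and 404 in columns 7 to 11, against 99.0, 108, 123, 130, 152 and 148 in columns 1 to 6 (1.33 ± 0.06, adjusted p = 8.09e-14). Of the 2 probe sets of FCGR1A, 1 was called. Its near-identical copy FCGR1BP differed by 1.48 ± 0.05, and probes for the 2 copies cannot be told apart with certainty. FCGR2A, the low-affinity receptor, CSF3R, the receptor of G-CSF, and CST3, the protease inhibitor cystatin C, were higher by 0.59 ± 0.05, 0.61 ± 0.05 and 0.89 ± 0.07. Among the 10 called lower, CD36, a scavenger receptor, had 24.4 to 98.1 in columns 7 to 11 and 81.8 to 153 in columns 1 to 6 (-0.88 ± 0.10). FPR2, a formyl peptide receptor, differed by -0.76 ± 0.10, CYBB, the catalytic subunit of the phagocyte oxidase, by -0.68 ± 0.08, and FCER1G, the signalling chain shared by Fc receptors, by -0.41 ± 0.10. CD14 was dim, at means of 8.09 in columns 7 to 11 and 8.21 in columns 1 to 6, and was not called (adjusted p = 0.855). ITGAM, the integrin CD11b, overlapped between the sets, at 113 to 220 in columns 7 to 11 and 88.0 to 191 in columns 1 to 6 (0.28 ± 0.08, adjusted p = 0.00893). It was not called when the shGSK3A_6 construct was left out (0.17, adjusted p = 0.104). Receptors and markers of this lineage were thus not moved in 1 direction.

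C2, VEGFA, FCER2, DLK1, SLPI, CHI3L1 and AFF2 were also among the 15 largest increases, and some genes of MHC class II were higher. C2, a complement protease, had 110 to 219 in columns 7 to 11 and 22.6 to 66.3 in columns 1 to 6 (1.36 ± 0.08), with the shGSK3A_6 array highest in both sets. Of 14 measured genes of MHC class II and costimulation 4 were called higher (28.6%, against 18.9% of all genes tested) and none lower. These were CD74, the invariant chain, by 1.01 ± 0.09, the peptide-loading HLA-DMA by 0.94 ± 0.09, and HLA-DRB1 and HLA-DRA by 0.73 ± 0.12 and 0.61 ± 0.13. HLA-DRA was dim, at 13.3 to 45.2 in columns 7 to 11 and 8.20 to 11.4 in columns 1 to 6, and was not called with a pseudocount of 64 (adjusted p = 0.0892). VEGFA, the angiogenic growth factor induced by hypoxia and by ATF4, had 1010 to 1240 in columns 7 to 11 and 340 to 556 in columns 1 to 6 (1.31 ± 0.09). FCER2, the low-affinity IgE receptor CD23, DLK1, a Notch-related membrane protein, and SLPI, an inhibitor of elastase and cathepsin G, were higher by 1.31 ± 0.09, 1.33 ± 0.07 and 1.46 ± 0.12. CHI3L1, a secreted chitinase-like protein, had 157 to 618 in columns 7 to 11 and 31.0 to 184 in columns 1 to 6, with the shGSK3A_5 array highest in each set (1.496 ± 0.09). AFF2, a nuclear RNA-binding protein, had 311 to 437 in columns 7 to 11 and 95.3 to 148 in columns 1 to 6 (1.57 ± 0.07).

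ANXA2, TPM4, CORO1C and KRT9 were also among the 15 largest decreases. ANXA2, a membrane-binding annexin, had 1030 to 1990 in columns 7 to 11 and 2130 to 4260 in columns 1 to 6 (-1.14 ± 0.07), and its processed copies make that level uncertain. TPM4, a tropomyosin, and CORO1C, an actin-binding coronin, differed by -1.09 ± 0.04 and -1.09 ± 0.05. KRT9, a keratin, had 13.2 to 20.4 in columns 7 to 11 and 43.9 to 119 in columns 1 to 6 (-1.43 ± 0.09). The gene ACTB had 8870 to 9740 in columns 7 to 11 and 10500 to 11100 in columns 1 to 6 (-0.38 ± 0.02, adjusted p = 1.65e-11), beside the 5′ to 3′ differences of its control probe sets above, and GAPDH, a glycolytic enzyme, differed by -0.21 ± 0.04.

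Transcripts of cytosolic ribosomal proteins were higher by small amounts. Of 23 measured members 16 were called higher and RPL7 was called lower (-0.09 ± 0.02), with a median of 0.09. Of all genes tested, 18.9% were called higher and 17.2% lower. RPL13 had 8800 to 9790 in columns 7 to 11 and 7010 to 7500 in columns 1 to 6 (0.25 ± 0.03), and RPS9 had 4410 to 4640 in columns 7 to 11 and 3420 to 3750 in columns 1 to 6 (0.31 ± 0.03). The list median was 0.1547 with no further normalization and 0.1561 with median scaling. These short transcripts are also copied in many pseudogenes, so single members are uncertain. In the list of MYC and ribosome biogenesis 9 of 25 were lower (36%, against 17.2% of all genes tested), 3 were higher and 13 were not called, with a median of -0.05. NOP16 (-0.32 ± 0.04) and RRS1 (-0.28 ± 0.04) were among the lower members.

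The same columns were compared in the other lines. HL-60 had 1 gene called lower (0.00822% of genes tested) and none higher, and THP-1 had none in either direction, although 693 genes in HL-60 (5.7%) and 555 in THP-1 (4.56%) passed an unadjusted limma p of 0.05, against 5051 in U937 (41.5%). The column set took 3.19% of the total variance in HL-60 and 5.22% in THP-1. MOLM-14 stood with U937, with 26.5% of its variance, 2473 genes higher (20.3%) and 1695 lower (13.9%). In a direct test of U937 against the mean of the other 3 lines, the column difference was higher in U937 for 2115 genes (17.4%) and lower for 2098 (17.2%). Against MOLM-14 alone it was higher for 2200 genes (18.1%) and lower for 2466 (20.3%).

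Genes called in both U937 and MOLM-14 included many of each combination of directions, and no test of the overlap was run. Of the genes lower in U937, 735 were called higher in MOLM-14, which is 35.2% of the U937 list and 29.7% of the MOLM-14 list, and 395 were called lower in MOLM-14 (18.9% and 23.3%). Of the genes higher in U937, 559 were higher in MOLM-14 (24.3% of the U937 list and 22.6% of the MOLM-14 list) and 569 were lower (24.7% and 33.6%). By list, the U937 median of -0.64 for mitosis stood beside 0.28 in MOLM-14, that of -0.34 for heat shock beside 0.29, that of -0.27 for NRF2 targets beside 0.23, that of 0.59 for the ATF4 list beside -0.27, and that of 0.17 for immediate early genes beside -0.35. Between the lines, the difference was called lower in U937 for all 29 mitosis, 16 of 19 heat shock and 14 of 17 NRF2 members. It was called higher for 26 of 28 ATF4 members and 12 of 18 immediate early genes. These lists had medians of opposite sign, and other changes were shared. Of the primary granule genes called higher in U937, ELANE, PRTN3, AZU1, CTSG and MS4A3 were also called higher in MOLM-14. Their MOLM-14 differences were 0.35, 0.83, 0.43, 0.80 and 0.29. CFD was called lower there (-0.29). For PRTN3 and CTSG the difference between the lines was not called (adjusted limma p of 0.796 and 0.0514).

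**Figure D5:**
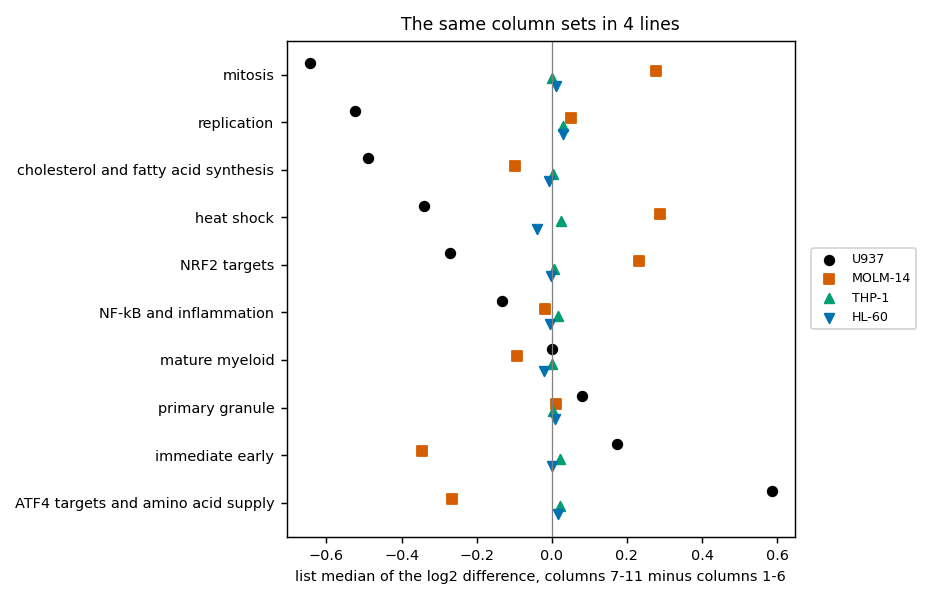
Median log2 difference, columns 7 to 11 minus columns 1 to 6, of 10 gene lists in U937, MOLM-14, THP-1 and HL-60, where each line has the same column positions. U937 and MOLM-14 lie on opposite sides of 0 for mitosis, heat shock, NRF2, immediate early and ATF4 genes, and the THP-1 and HL-60 medians lie near 0.

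Markers of other cell types stayed low, with few exceptions. Of 13 measured erythroid markers HBZ was called lower, of 13 megakaryocyte markers PPBP was called lower, of 12 B cell markers BLNK and IGLL1 were called higher, and of 21 T and NK cell markers NKG7, KLRD1 and NCAM1 were called higher and CD3D lower. The summed intensity of the list was 177 to 186 in columns 7 to 11 and 192 to 205 in columns 1 to 6 for erythroid markers, and 170 to 223 in columns 7 to 11 and 166 to 221 in columns 1 to 6 for megakaryocyte markers. For B cell markers it was 151 to 181 in columns 7 to 11 and 122 to 133 in columns 1 to 6, and for T and NK cell markers 1120 to 1540 in columns 7 to 11 and 910 to 1510 in columns 1 to 6. These marker calls were not all stable: CD3D was called under 13 of 27 alternatives, KLRD1 under 14 of 27 and NKG7 under 21 of 28. Leaving out either array of a hairpin takes out that construct, so the alternatives are not all separate. NKG7 was not called without control replicate 3 (adjusted p = 0.123) or without the shGSK3B_2 construct (adjusted p = 0.0824). IGLL1 was not called without control replicate 3 (0.11, adjusted p = 0.0807). Of the 5 probe sets of NCAM1 and the 3 of KLRD1, 1 each was called. NKG7 alone made up most of the T and NK sum, at 913 to 1330 in columns 7 to 11 and 721 to 1310 in columns 1 to 6. Of 20 epithelial and stromal markers ACTA2, VIM and PECAM1 were higher, with a sum of 1840 to 2990 in columns 7 to 11 and 1200 to 2760 in columns 1 to 6. Means over the U937 arrays lay under the array median for 10 of the 13 erythroid, 12 of the 13 megakaryocyte, 11 of the 12 B cell, 19 of the 21 T and NK cell and 16 of the 20 epithelial and stromal markers. The part of other cells in the gene differences was not tested.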

How the data were processed

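RNA of 11 U937 arrays and 33 arrays of 3 other lines was read on Affymetrix high-throughput human genome arrays. The authors deposited 1 linear intensity for each of 22277 probe sets, from 3.4 to 12933. RMA and MAS5 are named in the submitters' processing notes, without versions, and which made the deposited table is not given in the sources used here. Intensities were turned into log2(intensity + 16), where the array medians spanned 0.154, and quantile-normalized over all 44 arrays. Of the probe sets, 19724 named 1 gene, and each of 12165 genes was represented by its brightest probe set on average. Where a called gene had other probe sets, these were not always called. Symbols came from GEO's platform annotation and were matched to RefSeq for 19707 probe sets. The fit by limma 3.58.1 in R 4.3.3 had 20 line and construct means and 1 column-set term per line, which leaves 20 residual degrees of freedom. The design tested U937, U937 against the mean of the other lines, and U937 against MOLM-14. Control probe measures were tested by exact permutation of column sets within construct. The fit was tested on simulated data.

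The members and the 30 gene lists were chosen with earlier results of these data known. Named genes are GSK3A and GSK3B, the 15 largest differences each way, up to 4 members per list, the 5 largest each way against the other lines and against MOLM-14, and a fixed set of 10. List exceptions, list members not called, the mature myeloid genes called lower, the ATF4 transcript and the members with a motif were named after their values were seen. Promoters are RefSeq sequences of GRCh38.p14. Depth does not apply to arrays, and the number of arrays limits the precision. The results of 1 gene's control probe sets are not reported here. CD33 and LYZ were not analysed here because no probe set names them alone. Alternatives were other normalizations, pseudocounts of 1 and 64, a filter on dim genes, U937 arrays alone, other spreads and weights, no construct block, a replicate block, every probe set, and leaving out arrays or constructs.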

Additional observations from a re-analysis of the deposited data

Results flagged for a closer look

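Among 284 groups of 5 or 6 arrays (142 genes and control probe sets in each column set), 18 (6.34%) had 1 array far from the rest of its set, where chance alone flags about 5% of groups. In columns 7 to 11 the shGSK3A_6 array stood apart for DDIT4 (415, the others 288 to 319), GRN (819, the others 568 to 624), PSAP (1380, the others 938 to 1040), SDF2L1 (85.8, the others 111 to 116) and the 3′ control probe set of GAPDH (4850, the others 5020 to 5060). The shGSK3A_5 array of that set stood apart for ACTB (9740, the others 8870 to 9040) and for its own target GSK3A (37.8, the others 44.7 to 47.5), and the control array did so for IGLL1 (30.9, the others 9.10 to 12.9). In columns 1 to 6 the shGSK3A_5 array stood apart for BLNK (22.6), ITGAM (191, the others 88.0 to 115) and PIK3IP1 (63.3). The shGSK3B_2 array did so for GCLM (297, the others 591 to 740), RRM2 (1380, the others 2260 to 2670) and UQCRC2 (2160), shGSK3B_1 for CSF3R (45.1), shGSK3A_6 for KIF11 (435), and control replicate 1 for HBZ (54.9) and IGLL1 (13).

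The genes whose column difference in U937 departed most from that of other lines, the 5 largest each way in either test, are 14 different genes, each past an adjusted limma p of 0.05; other named genes passed too. Against the mean of HL-60, THP-1 and MOLM-14 it was larger by 3.55 for EGR1, 1.73 for CD69, 1.67 for CFD, 1.57 for AFF2 and 1.55 for ASNS, and the difference was -2.95 for HMOX1, -2.39 for S100A8, -1.74 for S100A9, -1.73 for NQO1 and -1.71 for GCLM. Against MOLM-14 it was larger by 4.47 for EGR1, 2.53 for PSAT1, 2.51 for HLA-DRA, 2.32 for ADGRL2 and 2.18 for ASNS, and the difference was -4.02 for HMOX1, -3.41 for S100A8, -2.62 for NQO1, -2.49 for PIR and -2.29 for S100A9. For ADGRL2 this came from MOLM-14 (-2.33), since U937 was dim and not called (-0.01). The MOLM-14 difference was also the larger in size for PSAT1, PIR and HLA-DRA (-1.90, against 0.61 for U937). It was of similar size for NQO1 (1.33, against -1.29 for U937). For EGR1, ASNS, HMOX1, S100A8 and S100A9 the U937 difference was the larger in size. There were 6 lists with medians of 1 sign in all 5 constructs of U937 and of the other sign in all 5 of MOLM-14, with U937 medians of -0.64 for mitosis, -0.34 for heat shock, -0.27 for NRF2 targets, 0.17 for immediate early genes, 0.10 for MHC class II and costimulation and 0.0891 for cytosolic ribosomal proteins. These list differences were not tested.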

How the results depend on the processing

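Of 166 counts of called genes under the alternatives, 151 stayed within 1.5 times the values given. Without the construct block, U937 had 1443 genes higher and 1272 lower, against the other lines 1220 and 1184, and against MOLM-14 1289 and 1490. With the replicate block, the column difference is that of the hairpins less the difference between control replicates 2 and 1. Control replicate 3 then adds nothing to it. With this block the counts were 472 and 401, 378 and 364, and 468 and 512. It left 11 replication, 19 mitosis, 7 heat shock, 9 cholesterol and 6 NRF2 members lower and 8 ATF4 members higher, and turned NKG7 to -0.0639 (adjusted p = 0.926 by limma, over all alternatives 0.00334 to 0.926). With every probe set counted there were 3350 lower in U937, 3163 lower against the other lines and 3374 higher against MOLM-14, as more rows were tested. The cause was not tested for the others.

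With construct means removed, same-numbered replicates correlated at 0.706 to 0.80 in 16 pairs and at -0.706 to -0.644 in 4 pairs. The 4 pairs join control replicate 2 with hairpin replicate 2, which lie in different column sets. Any 2 hairpins gave the same value for both replicate numbers, so the 16 pairs are not all separate. These values follow the column sets and cannot show whether the numbers pair the arrays. Leaving out 1 U937 array at a time gave 2062 to 2241 genes higher and 1880 to 2043 lower, against the other lines 1908 to 2058 and 1916 to 2060, and against MOLM-14 2057 to 2167 and 2344 to 2430. It gave 24 to 28 replication, 29 mitosis, 15 to 16 heat shock, 16 to 19 cholesterol and 12 NRF2 members lower and 23 to 26 ATF4 members higher. The 3′ to 5′ excess was 0.0669 to 0.1016 for GAPDH and 0.3006 to 0.3531 for ACTB (exact permutation p = 0.0417 to 0.125, since fewer arrangements remain).

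Of 3630 alternative values of named genes, 3524 kept direction and call, 105 kept direction but lost the call, and 1 reversed. These values are not all separate, since leaving out either array of a hairpin takes out that construct. Of the lost calls, 43 came with the replicate block (adjusted p of 0.0919 for ASNS, 0.0724 for MYC and 0.155 for FOS) and 21 without the construct block, and CD3D lost 14, KLRD1 13, PSAT1 7, NKG7 6, ITGAM 5, IGLL1 4 and HLA-DRA 3. Among list medians 778 stayed within the spread and 61 did not. With a pseudocount of 64 the medians were 0.04 for MHC class II, -0.07 for NF-kB and 0.10 for immediate early genes. With the dim filter they were 0.66 for primary granule and 0.67 for MHC class II genes and -0.24 for NF-kB genes. With the dim filter some lists had no member left and give no value. A fit without the MOLM-14 arrays was chosen after seeing the data. Dim genes, at about the array median or below, limit what these arrays can show.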

Other observations

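In 7 further lists, of lysosome, respiratory chain, hypoxia and glycolysis, unfolded protein, apoptosis, interferon and p53 genes, calls went both ways. Over all genes tested, 18.9% were called higher and 17.2% lower. Of 32 measured lysosome and autophagy genes 12 were called higher and 10 lower, and the higher ones included the acid hydrolase activator PSAP (0.72 ± 0.05), the growth factor precursor GRN (0.63 ± 0.05), the peptidase TPP1 (0.54 ± 0.05) and the glucosidase GAA (0.65 ± 0.06). Respiratory chain genes had 11 of 30 higher and 6 lower, with NDUFB5 at 0.45 ± 0.04 and NDUFB3 at -0.35 ± 0.04. In the hypoxia and glycolysis list 10 of 30 were higher and 7 lower. There the glycolytic enzymes ALDOA (-0.27 ± 0.03) and PKM (-0.63 ± 0.08) were lower while VEGFA and the MYC antagonist MXI1 (0.72 ± 0.06) were higher. For PKM, the 2 control arrays of columns 1 to 6 differed from each other by 0.47 (699 and 993).

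Among 19 genes of the unfolded protein response 4 were higher, HERPUD1 (0.45 ± 0.06) and SEL1L (0.34 ± 0.05) among them, although of the 4 probe sets of SEL1L 1 was called higher and 1 lower, and 7 were lower, including the chaperone partners SDF2L1 (-0.89 ± 0.07) and MANF (-0.39 ± 0.05). Apoptosis regulators had 5 of 23 higher and 9 lower, with BCL2 at 0.76 ± 0.08 and BAX and FAS at -0.33 ± 0.05 and -0.36 ± 0.05. Of the 4 probe sets of BCL2 1 was called, and the column sets overlapped for it (185 to 287 in columns 7 to 11, 95.4 to 192 in columns 1 to 6). Of 38 interferon response genes 4 were higher and 7 lower, and of 16 p53 targets 3 were higher and 5 lower. Over all genes tested the shares were 18.9% higher and 17.2% lower. Among 10 genes of glucose sensing, FOXO3 (0.44 ± 0.05) and TSC22D3 (0.77 ± 0.09) were higher and TXNIP, which follows glucose, was lower (-0.45 ± 0.10), without 1 sign in all constructs. Of 14 genes of metallothioneins and metal handling 4 were called lower (28.6%, against 17.2% of all genes tested) and none higher. These were MT1E (-0.28 ± 0.06), the copper chaperone ATOX1 (-0.24 ± 0.05), the transferrin receptor TFRC (-0.24 ± 0.05) and FTL.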
